A study of Rattus norvegicus with 8 samples.

Results

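The protein kinase genes are the rows of the authors' deposited table whose gene description names a protein kinase, a tyrosine kinase, a threonine kinase or a cyclin-dependent kinase, which gave 51 of the 2462 listed genes. By their descriptions 41 of the 51 were kinases, 4 were kinase inhibitors, 3 were regulatory subunits and 3 were substrates or binding partners. RNA had been sequenced from livers of 1-year-old wild type Fischer 344 (F344) rats, an inbred strain. The CDAA group was 4 rats on the choline-deficient amino acid-defined diet, which the labels describe as the trigger of hepatocellular carcinoma, and the CSAA group was 4 rats on the choline-sufficient form of that diet. The labels do not give the sex of the rats, their time on the diet or whether tumour tissue was dissected. The table compares the diet groups and holds no values of single rats, so fold changes are given with the standard error (SE) that DESeq2 gave the authors, and each level is a group value without a spread. A value written as x ± y in parentheses is the DESeq2 log2 fold change of CDAA over CSAA with its SE.

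Protein kinases transfer phosphate from ATP to serine, threonine or tyrosine residues of other proteins and so switch their activity. Receptor tyrosine kinases carry signals from growth factors and matrix across the cell membrane, and cytoplasmic tyrosine kinases and the MAP kinase cascade relay them. Cyclin-dependent and mitotic kinases drive cell division. In liver, cAMP-dependent protein kinase (PKA) mediates the response to glucagon, and AMP-activated protein kinase (AMPK) restrains lipid synthesis when energy is short. Regulatory subunits and small inhibitor proteins set how active these enzymes are.

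The 9 cell cycle genes and the collagen receptor genes Ddr1 and Ddr2 were higher in CDAA livers, as were 8 of the 10 genes of cytoplasmic tyrosine kinases. The 3 AMPK subunit genes were lower, and the 4 genes of cAMP-dependent kinase were split, with Prkaca and Prkar2a lower and Pkia and Prkx higher. In the authors' deposited table, 39 of the 51 genes (76.5%) rose and 12 (23.5%) fell in CDAA, where 57.1% of all listed genes rose and 42.9% fell. The median log2 fold change in the authors' deposited table was 1.44 among the 39 that rose, against 1.65 among all risers, and -0.93 among the 12 that fell, against -1.08 among all fallers. A rise of at least 2-fold was recorded for 30 of the 51 in the authors' deposited table and a fall of at least 2-fold for 3, where the shares of all listed genes were 50.2% and 24.9%. With adjusted p, false discovery rate and q all under 0.001, 26 of the 51 were higher and 6 lower in the authors' deposited table, where the shares of all listed genes were 39% and 27%. The table is itself a selection of genes past 0.01 in DESeq2, edgeR and Cufflinks, so presence in it is no finding about a kinase and absence from it does not show that a gene was unchanged. From the ratio of adjusted to raw p-values, the DESeq2 adjustment had run over 16076 genes, of which the 2462 listed are 15.3%; the edgeR adjustment had run over 15041 genes, of which they are 16.4%.

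The 39 genes that rose were for the most part weakly expressed in CSAA livers, and the 12 that fell were more abundant. By the Cufflinks group values, taken as FPKM, a measure scaled for transcript length and library size, the risers had a median of 3.78 FPKM in CDAA and 1.23 FPKM in CSAA in the authors' deposited table. The fallers had medians of 10.3 FPKM in CDAA and 19.4 FPKM in CSAA in the authors' deposited table. Direction went with level for kinases much as it did in the whole table. Under 1 FPKM in CSAA, 17 of 17 kinase genes rose in the authors' deposited table, as did 695 of the 703 listed genes at that level (98.9%). Between 1 and 10 FPKM, 21 of 26 kinase genes (80.8%) and 614 of 807 listed genes (76.1%) rose in the authors' deposited table. At 10 FPKM or more, 1 of the 8 genes and 98 of 952 listed genes (10.3%) rose in the authors' deposited table. The 1 was Tyrobp, an adaptor that is not itself a kinase. The change has the CSAA level in its denominator, so this relation is a description.

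**Figure D1:**
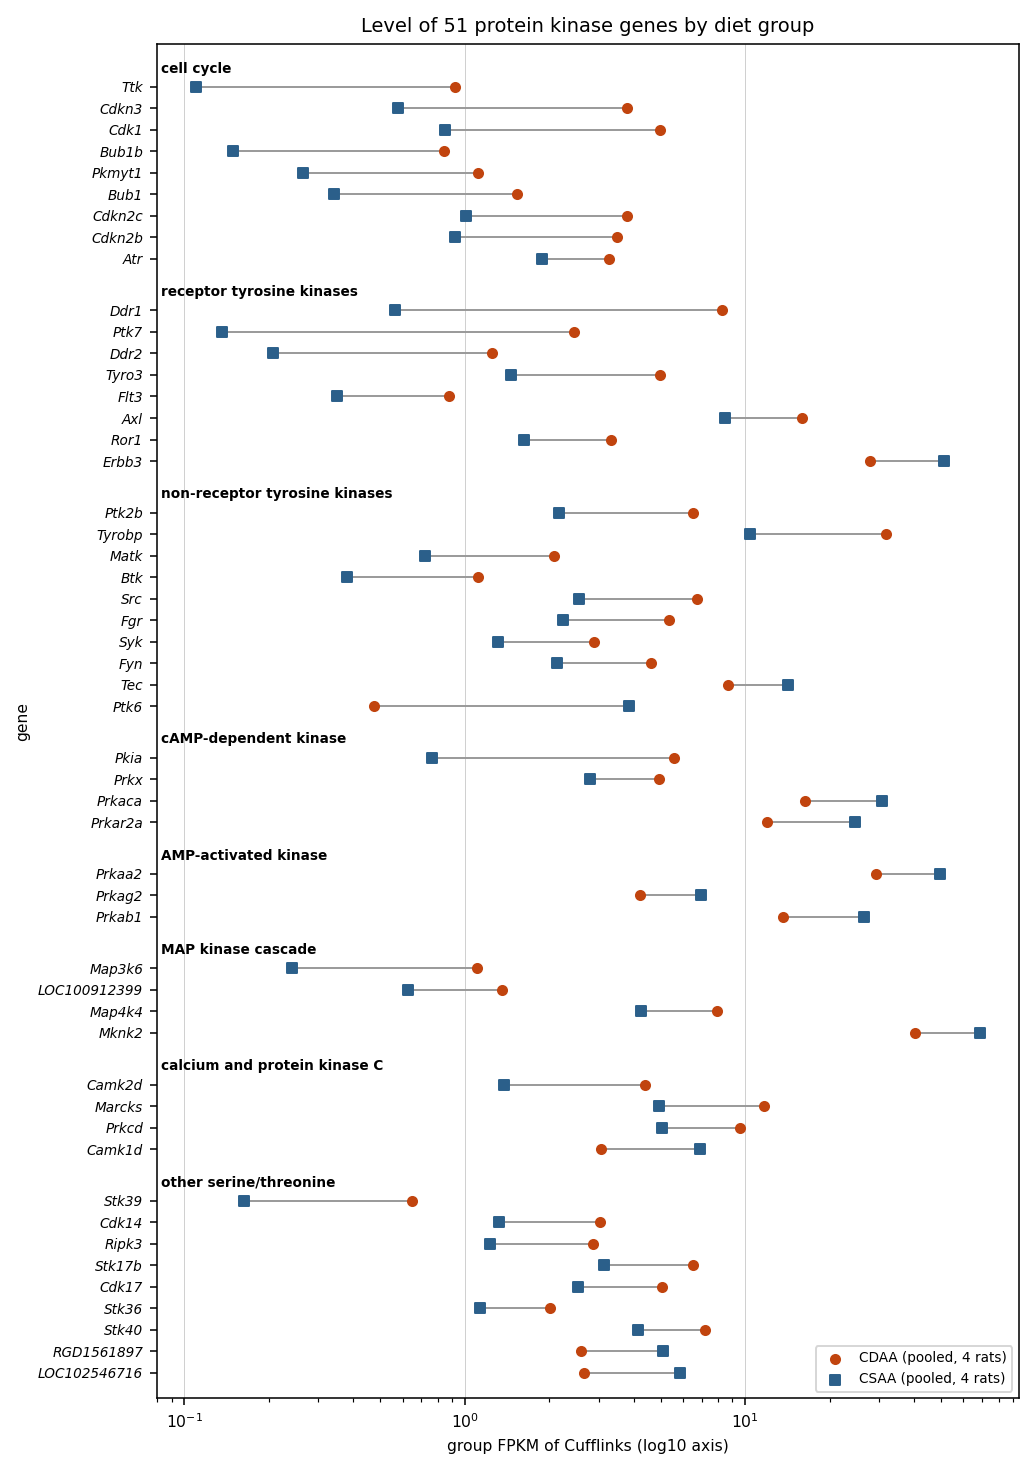
Group FPKM of the 51 protein kinase genes (log10 axis) in CDAA (circles) and CSAA (squares), 1 pooled value a group from the authors' deposited table, without error bars. Genes run down the page by class and then by fold change; the 9 cell cycle genes lie between 0.841 (Bub1b) and 4.95 FPKM (Cdk1) in CDAA, each to the right of its CSAA value, and the 3 AMPK subunits lie to the left of theirs.

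**Figure D2:**
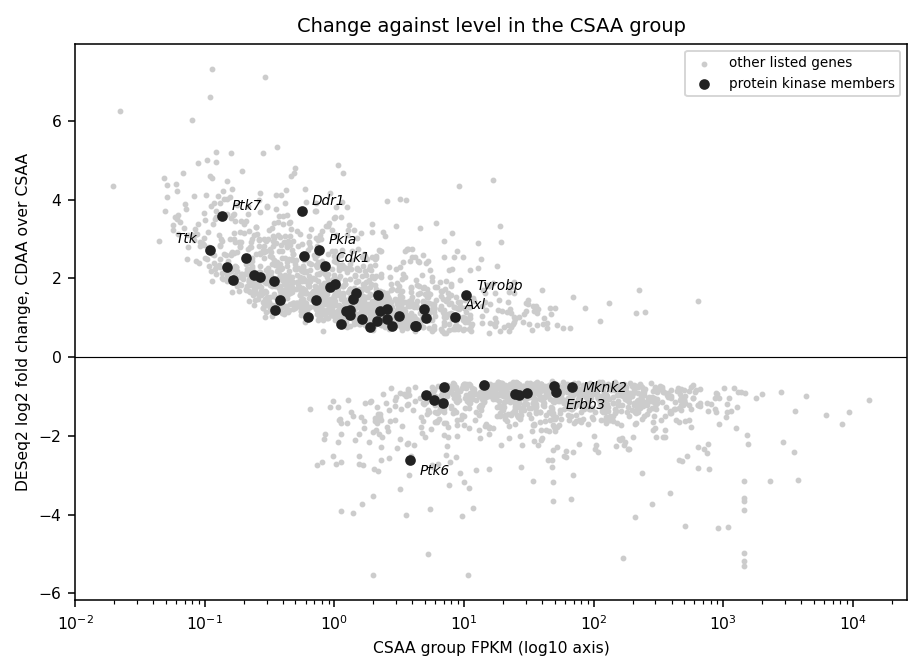
DESeq2 log2 fold change of CDAA over CSAA against the CSAA group FPKM (log10 axis) for the 51 protein kinase genes (black) and the other listed genes (grey), all from the authors' deposited table; 17 listed genes at 0 FPKM in CSAA, none of them a kinase gene, are not drawn. Kinase genes under 1 FPKM lie above the zero line, and those at 10 FPKM or more lie below it except Tyrobp.

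All 9 kinase and inhibitor genes of the cell cycle rose, 8 of them at least 2-fold, with a median of 2.04 on the log2 scale in the authors' deposited table. Of all listed genes 57.1% rose and 50.2% rose at least 2-fold, and 7 of the 9 were under 1 FPKM in CSAA, where 98.9% of listed genes rose, so the direction of those 7 is near that of any listed gene at their level in the authors' deposited table. Cdk1, the kinase that drives entry into mitosis (ENSRNOG00000000632; chromosome 20, 20576376 to 20591549 in build rn6), was at 4.95 FPKM in CDAA and 0.853 FPKM in CSAA, which is 2.32 ± 0.39 (SE) on the log2 scale, in the authors' deposited table. Kinases of the spindle checkpoint, which holds chromosome separation until all chromosomes are attached, rose together. Ttk, the MPS1 kinase that starts the checkpoint signal, was at 0.922 FPKM in CDAA and 0.110 FPKM in CSAA (2.71 ± 0.41, SE) in the authors' deposited table. Bub1b, the BUBR1 gene, was at 0.841 FPKM in CDAA and 0.149 FPKM in CSAA (2.28 ± 0.41), and Bub1 at 1.54 FPKM in CDAA and 0.342 FPKM in CSAA (1.94 ± 0.35), in the authors' deposited table. Pkmyt1, the membrane-bound kinase that holds CDK1 inactive, was at 1.12 FPKM in CDAA and 0.266 FPKM in CSAA (2.04 ± 0.32) in the authors' deposited table. Atr, the sensor kinase of stalled DNA replication, changed less, with 3.27 FPKM in CDAA and 1.88 FPKM in CSAA (0.77 ± 0.25) in the authors' deposited table.

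The inhibitor genes of cyclin-dependent kinases among the 51 genes were higher in CDAA, as the listed cyclin-dependent kinases were. Cdkn2c, the p18 inhibitor of CDK4 and CDK6, was at 3.78 FPKM in CDAA and 1.01 FPKM in CSAA (1.85 ± 0.27, SE) in the authors' deposited table. Cdkn2b, the p15 inhibitor of the same kinases, was at 3.47 FPKM in CDAA and 0.921 FPKM in CSAA (1.79 ± 0.37) in the authors' deposited table. Cdkn3 is named an inhibitor but encodes a phosphatase that removes the activating phosphate from cyclin-dependent kinases, and it was at 3.79 FPKM in CDAA and 0.578 FPKM in CSAA (2.56 ± 0.39) in the authors' deposited table. With Pkia below, these were all 4 inhibitors among the 51 genes, and their summed level was 16.6 FPKM in CDAA and 3.27 FPKM in CSAA, computed from the authors' deposited table. Under 1 FPKM in CSAA, the level of all but Cdkn2c, 695 of 703 listed genes rose. Between 1 and 10 FPKM, the level of Cdkn2c, 614 of 807 rose. Their direction is thus near that of most listed genes at such levels.

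The cell cycle genes had mean normalised counts from 24.0 (Ttk) to 363 (Atr) over all samples, and SEs from 0.25 to 0.41, in the authors' deposited table. Of a list of 6 cycling cell markers, 5 appeared in the authors' deposited table, each of them higher in CDAA, with a summed level of 17.7 FPKM in CDAA and 3.98 FPKM in CSAA and none at 0; their part in these changes was not tested. In RNA of a whole tissue, more cells of a type and more RNA per cell cannot be told apart. Kinases of division whose descriptions lack the chosen words were listed too. Of 33 mitotic and checkpoint kinases, 12 were in the authors' deposited table, with 11 higher and 1 lower, and 7 of the 12 were such genes. The same shares stand beside this list, the cycling cell markers and each family or marker list below. Of the genes in the DESeq2 adjustment 15.3% were listed, and 57.1% of listed genes were higher. A list can also hold symbols that were not tested. Among these 7, Pbk (3.09 ± 0.33, SE), Wee1, which inhibits CDK1 as Pkmyt1 does (2.41 ± 0.23), and Aurkb, the aurora kinase of the chromosomal passenger complex (2.21 ± 0.38), rose most in the authors' deposited table. Nek7, also a partner of the inflammasome, was the faller at -0.88 ± 0.21 in the authors' deposited table. Under 1 FPKM in CSAA, the level of most of the 12 and of most listed cycling cell markers, 695 of 703 listed genes rose. At 10 FPKM or more, the level of Nek7, 854 of 952 fell. These directions are thus near those of any listed gene at such levels. Of 25 cyclin genes 3 appeared in the authors' deposited table, each higher in CDAA, namely Ccne1 (2.81 ± 0.44), Ccnb1, the partner of CDK1 (2.59 ± 0.36), and Ccnd1 (1.21 ± 0.37).

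CCAAT boxes and TTTGAA elements are known from promoters of genes expressed in mitosis. For the 4 of the 9 cell cycle genes that rose most, the 250 bases before the transcription start are shown. They are RefSeq sequences of assembly GRCr8, not of the build used for the expression values, all on the plus strand, with CCAAT or its reverse complement ATTGG and TTTGAA or its reverse complement TTCAAA in capitals and no marked stretches overlapping. The windows are chr20:19265043-19265292 for Cdk1, chr15:22502136-22502385 for the first of the starts given for Cdkn3, chr8:93634389-93634638 for Ttk and chr3:126016817-126017066 for Bub1b.
Cdk1: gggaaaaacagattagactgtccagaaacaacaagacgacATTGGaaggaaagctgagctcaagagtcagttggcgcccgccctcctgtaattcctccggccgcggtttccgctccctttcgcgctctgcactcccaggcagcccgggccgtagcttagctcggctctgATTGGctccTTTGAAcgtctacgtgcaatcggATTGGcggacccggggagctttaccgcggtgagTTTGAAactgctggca
Cdkn3: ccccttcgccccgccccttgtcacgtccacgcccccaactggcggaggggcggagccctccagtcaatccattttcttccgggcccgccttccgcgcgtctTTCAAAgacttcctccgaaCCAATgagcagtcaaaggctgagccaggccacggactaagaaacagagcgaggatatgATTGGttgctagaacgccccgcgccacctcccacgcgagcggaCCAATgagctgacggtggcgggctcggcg
Ttk: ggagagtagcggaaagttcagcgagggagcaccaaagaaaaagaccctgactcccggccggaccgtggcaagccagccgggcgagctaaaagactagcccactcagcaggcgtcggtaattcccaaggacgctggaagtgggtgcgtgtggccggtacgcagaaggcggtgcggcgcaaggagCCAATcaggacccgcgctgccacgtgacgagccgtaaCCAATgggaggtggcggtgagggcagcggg
Bub1b: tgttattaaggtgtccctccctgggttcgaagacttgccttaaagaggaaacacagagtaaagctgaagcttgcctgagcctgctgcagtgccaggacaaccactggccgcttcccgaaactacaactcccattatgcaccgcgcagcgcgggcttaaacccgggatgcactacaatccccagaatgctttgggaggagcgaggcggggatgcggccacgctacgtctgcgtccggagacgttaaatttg
Cdk1 held 3 CCAAT and 2 TTTGAA matches in this window, Cdkn3 held 3 and 1, Ttk held 2 CCAAT matches and no TTTGAA, and Bub1b held neither. Over the 8 of the 9 cell cycle genes with a promoter in the RefSeq table, 4 held CCAAT and 3 held TTTGAA. The 2 that held both were Cdk1 and Cdkn3, which are among the 4 shown. Over all 33469 RefSeq promoter windows of the same length, 34.0% held CCAAT, 16.2% held TTTGAA and 5.87% held both. Among the 36 kinase genes with a promoter there, 10 held CCAAT (27.8%), 5 held TTTGAA (13.9%) and 3 held both (8.33%). Kinase and cell cycle genes were counted by the first start given for each, whereas the 33469 windows include every start.

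Among the 8 receptor tyrosine kinase genes in the authors' deposited table, 7 were higher in CDAA and Erbb3 was lower. Of all listed genes 57.1% were higher. Under 1 FPKM in CSAA, the level of 4 of the 7, 98.9% of listed genes rose. At 10 FPKM or more, the level of Erbb3, 854 of 952 fell, so these directions are near those of any listed gene at such levels. Ddr1 and Ddr2, the discoidin domain receptors that bind collagen, were both among the 7 that rose. Ddr1 (ENSRNOG00000057125; chromosome 20, 3552928 to 3575780, rn6) was at 8.27 FPKM in CDAA and 0.563 FPKM in CSAA, the largest rise of the 51 genes at 3.70 ± 0.46 (SE), or 13.0-fold, in the authors' deposited table. Ddr2, the form typical of mesenchymal cells, was at 1.25 FPKM in CDAA and 0.206 FPKM in CSAA (2.52 ± 0.33) in the authors' deposited table. Ptk7, a catalytically inactive receptor of planar cell polarity and Wnt signalling, was at 2.45 FPKM in CDAA and 0.136 FPKM in CSAA in the authors' deposited table. Its log2 fold change there was 3.58 ± 0.47 with DESeq2, 4.02 with edgeR and 4.17 with Cufflinks, and it was the 1 gene of the 51 on which the authors' deposited table differed by over 1.5 times between programs.

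Other receptors changed less. Tyro3, which binds protein S and GAS6, and Axl, which binds GAS6, both rose. Both receptors take part in the clearance of dead cells. Tyro3 was at 4.98 FPKM in CDAA and 1.46 FPKM in CSAA (1.62 ± 0.41, SE), and Axl at 15.9 FPKM in CDAA and 8.46 FPKM in CSAA (1.01 ± 0.31), in the authors' deposited table. The Wnt5a receptor gene Ror1 was at 3.31 FPKM in CDAA and 1.63 FPKM in CSAA (0.97 ± 0.26) in the authors' deposited table. Flt3, the receptor of dendritic cell progenitors, was at 0.881 FPKM in CDAA and 0.349 FPKM in CSAA (1.20 ± 0.36) in the authors' deposited table. Erbb3, the neuregulin receptor of hepatocytes (ENSRNOG00000004964; chromosome 7, 2989339 to 3010350, rn6), had the highest mean normalised count of the 51 genes, 3716, in the authors' deposited table. It was at 27.8 FPKM in CDAA and 50.9 FPKM in CSAA, which is -0.88 ± 0.19 on the log2 scale, in the authors' deposited table.

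Markers of bile duct cells and of stellate cells and fibroblasts moved with these receptors. Of 6 bile duct markers 5 appeared in the authors' deposited table, each of them higher in CDAA, with a summed level of 62.9 FPKM in CDAA and 9.85 FPKM in CSAA. All of the 5 but Epcam were under 1 FPKM in CSAA, where 695 of 703 listed genes rose. Of 7 stellate cell and fibroblast markers 4 were there and all 4 rose, with a sum of 37.3 FPKM in CDAA and 8.16 FPKM in CSAA in the authors' deposited table. None of these listed markers was at 0 in either group, and their part in the receptor changes was not tested. Over a list of 50 receptor tyrosine kinases, 15 were in the authors' deposited table, 12 higher and 3 lower; 7 of the 15 have descriptions without the chosen words. The largest DESeq2 changes among those 7 were those of Ephb3, an ephrin receptor (2.49 ± 0.49, SE), Epha3 (-1.59 ± 0.43) and the epidermal growth factor receptor gene Egfr (-1.39 ± 0.24) in the authors' deposited table. Egfr, like Erbb3, was an abundant transcript that fell, at 43.7 FPKM in CDAA and 119 FPKM in CSAA in the authors' deposited table. Of 48 ligands of such receptors, 12 were in the authors' deposited table, with 9 higher and 3 lower. Ligands of the receptors named here moved both ways. In the authors' deposited table Nrg1, a ligand of ERBB3, rose by 1.35 ± 0.27 (SE) on the log2 scale. Pros1, the protein S gene, was at 55.1 FPKM in CDAA and 107 FPKM in CSAA (-0.93 ± 0.23) in the authors' deposited table.

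Among the 10 genes of cytoplasmic tyrosine kinases in the authors' deposited table, counted with the adaptor gene Tyrobp, 8 were higher in CDAA and 2 were lower. The share of all listed genes that were higher was 57.1%, and it was 76.1% between 1 and 10 FPKM in CSAA, the level of most of the 10. Tyrobp, Syk, Btk, Fgr and Matk, best known from blood cells, were among the 8. Tyrobp encodes DAP12, the adaptor through which receptors of macrophages and natural killer cells recruit SYK (ENSRNOG00000020845; chromosome 1, 88875374 to 88879303, rn6). It was at 31.8 FPKM in CDAA and 10.4 FPKM in CSAA (1.57 ± 0.23, SE) in the authors' deposited table. Syk itself was at 2.88 FPKM in CDAA and 1.31 FPKM in CSAA (1.07 ± 0.33) in the authors' deposited table. Btk, the kinase of B cell and myeloid receptors, was at 1.12 FPKM in CDAA and 0.379 FPKM in CSAA (1.44 ± 0.35) in the authors' deposited table. Fgr, a myeloid kinase of the SRC family, was at 5.33 FPKM in CDAA and 2.24 FPKM in CSAA (1.18 ± 0.27) in the authors' deposited table. Matk, which restrains SRC family kinases, was at 2.09 FPKM in CDAA and 0.723 FPKM in CSAA (1.44 ± 0.36) in the authors' deposited table.

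More broadly expressed genes rose as well. Ptk2b, the PYK2 kinase that responds to calcium and adhesion, was at 6.49 FPKM in CDAA and 2.17 FPKM in CSAA (1.58 ± 0.19, SE) in the authors' deposited table. Src was at 6.70 FPKM in CDAA and 2.55 FPKM in CSAA (1.23 ± 0.32), and its relative Fyn at 4.62 FPKM in CDAA and 2.13 FPKM in CSAA (0.92 ± 0.19), in the authors' deposited table. Of 8 leukocyte markers, 5 appeared in the authors' deposited table, each of them higher in CDAA, with a summed level of 262 FPKM in CDAA and 102 FPKM in CSAA. The log2 fold changes of those 5 markers ran from 1.24 ± 0.37 for Cd74 to 2.05 ± 0.33 for Cd53 in the authors' deposited table, none was at 0, and their part in the kinase changes was not tested.

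Ptk6 and Tec were the cytoplasmic tyrosine kinase genes that fell. Ptk6, the BRK kinase, known in mice from the gut epithelium (ENSRNOG00000012987; chromosome 3, 176698304 to 176706896, rn6), was at 0.474 FPKM in CDAA and 3.83 FPKM in CSAA in the authors' deposited table. Its log2 fold change of -2.61 ± 0.49 (SE) was the largest fall of the 51 genes in the authors' deposited table, where Cufflinks gave -3.02. Tec, the founding member of the family that includes BTK, was at 8.70 FPKM in CDAA and 14.3 FPKM in CSAA (-0.70 ± 0.13) in the authors' deposited table. It had the smallest absolute change of the 51 genes in the authors' deposited table.

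The PKA subunit genes Prkaca and Prkar2a fell and the inhibitor gene Pkia rose. At 10 FPKM or more in CSAA, the level of both subunits, 854 of 952 listed genes fell in the authors' deposited table. Under 1 FPKM, the level of Pkia, 695 of 703 rose. The direction of each is thus near that of any listed gene at its level. Prkaca, the main catalytic subunit (ENSRNOG00000005257; chromosome 19, 25095088 to 25118860, rn6), was at 16.3 FPKM in CDAA and 30.8 FPKM in CSAA in the authors' deposited table. Its log2 fold change of -0.92 had the smallest error of the 51 genes, 0.10 (SE), with a DESeq2 adjusted p of 5.05e-18, in the authors' deposited table. Prkar2a, the type 2 regulatory subunit that binds anchoring proteins, was at 12.0 FPKM in CDAA and 24.5 FPKM in CSAA (-0.94 ± 0.16) in the authors' deposited table. Both subunits were thus lower by a like amount, with 95% Wald intervals of -1.11 to -0.72 for Prkaca and -1.25 to -0.64 for Prkar2a, computed from the authors' deposited table; their difference was not tested.

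Pkia encodes a short inhibitor protein that blocks the catalytic subunit as a pseudosubstrate and carries it out of the nucleus (ENSRNOG00000012095; chromosome 2, 96595087 to 96668222, rn6). It was at 5.56 FPKM in CDAA and 0.764 FPKM in CSAA, a rise of 2.72 ± 0.30 (SE), or 6.57-fold, in the authors' deposited table. The ratio of inhibitor to catalytic transcript per length, Pkia over Prkaca in FPKM, was 0.342 in CDAA and 0.0248 in CSAA, computed from the authors' deposited table. Prkx, a further catalytic kinase that cAMP activates, was at 4.92 FPKM in CDAA and 2.79 FPKM in CSAA (0.79 ± 0.26) in the authors' deposited table. Its DESeq2 adjusted p of 0.00886 was the highest of the 51 genes in the authors' deposited table. Of 22 genes in the list for PKA, its inhibitors and its anchoring proteins, which does not include Prkx, 5 were in the authors' deposited table, 3 higher and 2 lower. Besides Pkia, the anchoring protein genes Akap5 (1.57 ± 0.38) and Akap13 (0.66 ± 0.11) were those of the list that rose.

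All 3 AMPK subunits in the authors' deposited table fell, and 1 came from each kind of subunit in the trimer. Of all listed genes 42.9% fell, and at 10 FPKM or more in CSAA, the level of Prkaa2 and Prkab1, 854 of 952 fell in the authors' deposited table, so their direction is near that of any listed gene at that level. The catalytic subunit gene Prkaa2 (ENSRNOG00000007706; chromosome 5, 124574078 to 124642569, rn6) was at 29.3 FPKM in CDAA and 49.7 FPKM in CSAA (-0.74 ± 0.18, SE) in the authors' deposited table. Prkab1, the scaffold subunit (ENSRNOG00000001142; chromosome 12, 46316235 to 46326790), was at 13.7 FPKM in CDAA and 26.6 FPKM in CSAA (-0.97 ± 0.15) in the authors' deposited table. Prkag2, the subunit that senses AMP, was at 4.20 FPKM in CDAA and 6.97 FPKM in CSAA (-0.76 ± 0.17) in the authors' deposited table. Each of the 3 changes was under 2-fold, and their 95% Wald intervals, computed from the authors' deposited table, ran from -1.09 to -0.40 for Prkaa2, -1.26 to -0.68 for Prkab1 and -1.09 to -0.42 for Prkag2. Of 24 genes in the list for AMPK, its upstream kinase complex and its related kinases, those 3 were the ones in the authors' deposited table.

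The hepatocyte markers that were listed fell, as Prkaca, Prkar2a and the AMPK subunits did, where 42.9% of all listed genes fell. At 10 FPKM or more in CSAA, the level of the listed markers, 854 of 952 listed genes fell. The direction of the markers is thus near that of any listed gene at that level. Of 8 hepatocyte markers, 3 appeared in the authors' deposited table, each lower in CDAA, with 6506 FPKM summed in CDAA and 14709 FPKM in CSAA, most of it from the transthyretin gene Ttr. The log2 fold changes of these markers were -0.76 ± 0.19 (SE) for Hnf4a, -1.08 ± 0.13 for Ttr and -4.31 ± 0.45 for Cyp2c11 in the authors' deposited table. Their part in the subunit changes was not tested.

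**Figure D3:**
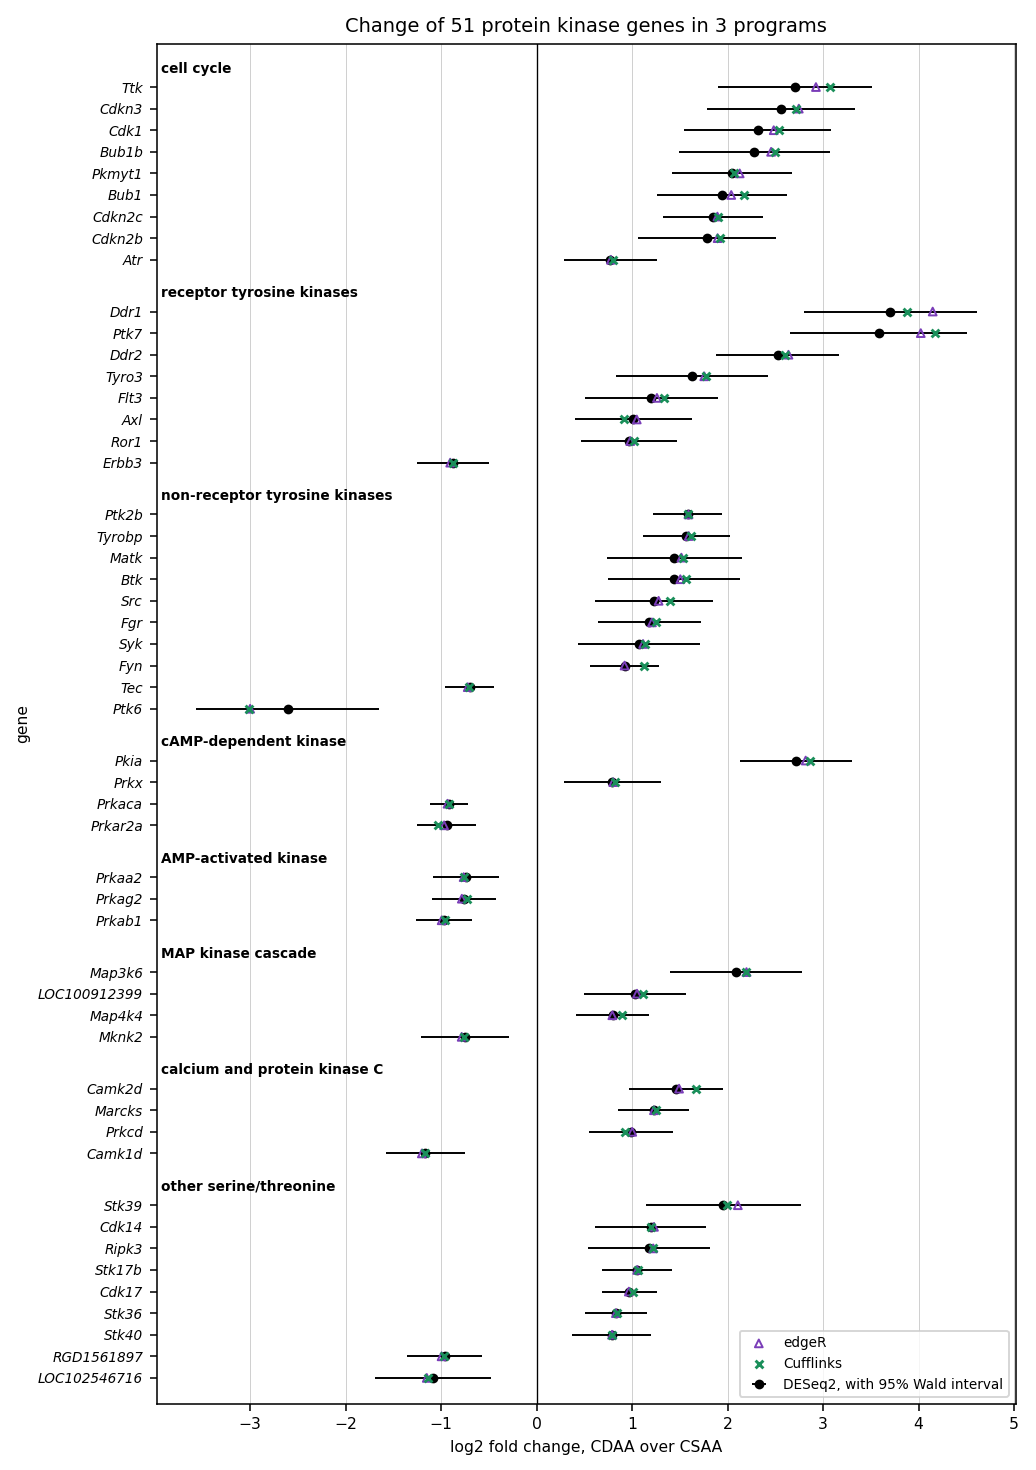
Log2 fold change of CDAA over CSAA for the 51 protein kinase genes by class, from the authors' deposited table; circles are DESeq2 with 95% Wald intervals (1.96 SE), triangles edgeR and crosses Cufflinks. All 51 have the same sign in the 3 programs; Ddr1 lies farthest right at 3.70 and Ptk6 farthest left at -2.61 (DESeq2).

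Among 4 genes of the MAP kinase cascade in the authors' deposited table, 3 rose and 1 fell, where 57.1% of all listed genes rose. Under 1 FPKM in CSAA, the level of Map3k6 and LOC100912399, 695 of 703 listed genes rose. At 10 FPKM or more, the level of Mknk2, 854 of 952 fell. The direction of these genes is thus near that of any listed gene at such levels. Map3k6, the ASK2 kinase of the stress pathway, was at 1.10 FPKM in CDAA and 0.241 FPKM in CSAA (2.08 ± 0.35, SE) in the authors' deposited table. Map4k4, a kinase upstream of JNK, was at 7.91 FPKM in CDAA and 4.26 FPKM in CSAA (0.79 ± 0.19) in the authors' deposited table. LOC100912399, described as like MAP kinase kinase kinase 1, was at 1.36 FPKM in CDAA and 0.629 FPKM in CSAA (1.03 ± 0.27) in the authors' deposited table; reads shared with its namesake could be split, so its value is uncertain. Mknk2, which phosphorylates the cap-binding factor eIF4E, was the most abundant kinase transcript of the 51 genes. It was at 40.4 FPKM in CDAA and 68.7 FPKM in CSAA (-0.75 ± 0.24) in the authors' deposited table. Of the 64 cascade genes in the list, 5 were in the authors' deposited table, 4 higher and 1 lower. The ribosomal S6 kinases Rps6ka2 (1.64 ± 0.33) and Rps6ka3 (1.54 ± 0.19) were the listed cascade genes outside the chosen words in the authors' deposited table. The MAP kinase phosphatases, which switch the cascade off, had 6 of 13 in the authors' deposited table, 5 higher and 1 lower. Dusp8 (2.83 ± 0.49) and Dusp2 (2.62 ± 0.46) rose most, and Dusp1 fell (-0.82 ± 0.27), in the authors' deposited table.

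Camk2d and Camk1d, the calcium-dependent kinases among the 51 genes, moved apart. In the wider list of such kinases 4 of the 5 listed genes were higher and 1 lower, where 57.1% of all listed genes were higher. Between 1 and 10 FPKM in CSAA, the level of Camk2d and Camk1d, 614 of 807 listed genes rose. Camk2d, a calmodulin-dependent kinase best known from heart, was at 4.39 FPKM in CDAA and 1.38 FPKM in CSAA (1.46 ± 0.25, SE) in the authors' deposited table. Camk1d was at 3.05 FPKM in CDAA and 6.89 FPKM in CSAA (-1.17 ± 0.21) in the authors' deposited table. Camk2d was thus the higher of the 2 per length in CDAA, with a Camk2d to Camk1d FPKM ratio of 1.44, and the lower in CSAA, with a ratio of 0.200, computed from the authors' deposited table. Prkcd, a protein kinase C that diacylglycerol activates, was at 9.60 FPKM in CDAA and 5.04 FPKM in CSAA (0.99 ± 0.22) in the authors' deposited table. Marcks, a membrane-bound substrate of protein kinase C that binds actin, was at 11.7 FPKM in CDAA and 4.91 FPKM in CSAA (1.22 ± 0.19) in the authors' deposited table. Prkcd was the 1 gene of the 18 in the list for protein kinases C, D and N that was in the authors' deposited table. Outside the chosen words, Dclk1, a doublecortin-like kinase that marks tuft cells, was at 6.48 FPKM in CDAA and 0.195 FPKM in CSAA (4.71 ± 0.37) in the authors' deposited table, a larger rise than any of the 51.

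Of the remaining 9 genes in the authors' deposited table, serine/threonine kinases and a kinase substrate, 7 were higher in CDAA. The share of all listed genes that were higher was 57.1%. It was 76.1% between 1 and 10 FPKM in CSAA, the level of all of the 9 but Stk39. Stk39, the SPAK kinase that activates sodium-coupled chloride transporters, was at 0.650 FPKM in CDAA and 0.163 FPKM in CSAA (1.95 ± 0.41, SE) in the authors' deposited table. Its mean normalised count of 18.6 was the lowest of the 51 genes in the authors' deposited table. Ripk3, the kinase of necroptosis, was at 2.85 FPKM in CDAA and 1.23 FPKM in CSAA (1.17 ± 0.33) in the authors' deposited table. Its substrate Mlkl, a pseudokinase whose description lacks the chosen words, was at 5.77 FPKM in CDAA and 3.27 FPKM in CSAA (0.78 ± 0.15) in the authors' deposited table. Cdk14, which works with cyclin Y in Wnt signalling, was at 3.04 FPKM in CDAA and 1.33 FPKM in CSAA (1.19 ± 0.30), and Cdk17 at 5.07 FPKM in CDAA and 2.52 FPKM in CSAA (0.97 ± 0.15), in the authors' deposited table. Stk17b, the DRAK2 kinase of lymphocytes, was at 6.53 FPKM in CDAA and 3.14 FPKM in CSAA (1.05 ± 0.19) in the authors' deposited table. Smaller rises were those of Stk36 (0.83 ± 0.17), needed for motile cilia in mice, and of the pseudokinase gene Stk40 (0.79 ± 0.21) in the authors' deposited table.

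Both fallers of this group carry provisional identifiers. RGD1561897, described as similar to the stathmin-interacting kinase KIST, was at 2.59 FPKM in CDAA and 5.07 FPKM in CSAA (-0.97 ± 0.20, SE) in the authors' deposited table. LOC102546716, described as like a nuclear substrate of casein kinase and cyclin-dependent kinase, was at 2.66 FPKM in CDAA and 5.86 FPKM in CSAA (-1.09 ± 0.31) in the authors' deposited table. Reads shared with the genes they resemble could be split, so both values are uncertain.

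Beyond the 51, the kinase family lists held 47 further listed genes whose descriptions lack the chosen words, among them inhibitors and anchoring proteins. Of the 47, 33 were higher and 14 lower in the authors' deposited table, where 57.1% of all listed genes were higher. Of the 20 lists, that of mitochondrial protein kinases had the most fallers, with 6 of 11 in the authors' deposited table, 1 higher and 5 lower. At 10 FPKM or more in CSAA, the level of those 5, 854 of 952 listed genes fell. Under 1 FPKM, the level of the riser Pdk3, 695 of 703 rose. These directions are thus near those of any listed gene at such levels. Adck3, needed for coenzyme Q synthesis, was at 35.3 FPKM in CDAA and 189 FPKM in CSAA (-2.33 ± 0.29, SE) in the authors' deposited table. Among the pyruvate dehydrogenase kinases, which hold pyruvate out of the citric acid cycle, Pdk4 (-1.86 ± 0.38), Pdk1 (-1.72 ± 0.36) and Pdk2 (-0.71 ± 0.20) fell and Pdk3 rose (2.08 ± 0.36) in the authors' deposited table. In the list for PI3K, AKT and SGK, the growth factor and insulin branch, 7 of 23 genes were in the authors' deposited table, 5 higher and 2 lower. Pik3ip1, a membrane protein that inhibits PI3K (2.61 ± 0.44), and Sgk1, a kinase induced by steroids and stress (1.31 ± 0.28), rose, and Sgk2 fell (-1.17 ± 0.36), in the authors' deposited table. The leukocyte PI3K catalytic subunits Pik3cg (1.30 ± 0.21) and Pik3cd (1.27 ± 0.31) rose, and the broadly expressed regulatory subunit gene Pik3r1 fell (-0.80 ± 0.16), in the authors' deposited table.

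The remaining kinase lists had between 1 and 10 genes listed, to be read against the same 15.3% listed and 57.1% higher. Of 32 cytoplasmic tyrosine kinases 10 were in the authors' deposited table, 8 higher and 2 lower. Of 23 cyclin-dependent kinases 3 were in it and higher in CDAA, namely Cdk1, Cdk14 and Cdk17, in the authors' deposited table. Of 19 inhibitors and subunits of cyclin-dependent kinases 4 were in the authors' deposited table, 3 higher and 1 lower, the lower one being Cdk5rap3 (-0.73 ± 0.23, SE). Calcium and calmodulin-dependent kinases and their relatives had 5 of 33 in the authors' deposited table, 4 higher and 1 lower, among them the pseudokinase Trib3, an inhibitor of AKT (1.80 ± 0.32). Of 12 receptor kinases of the TGF-beta superfamily, 1 was in the authors' deposited table, the anti-Mullerian hormone receptor gene Amhr2 (1.81 ± 0.45). Of 18 innate immune and cell death kinases, Ripk3 and Mlkl were those in the authors' deposited table. A list of STE20, Hippo, PAK, ROCK and LIM kinases and other genes named Stk had 5 of 41 in the authors' deposited table, all higher. These were Stk39, Stk36, Stk17b, Stk40 and Limk2, which phosphorylates cofilin (0.83 ± 0.19). WNK, DYRK, CLK, casein and other kinases had 8 of 80 in the authors' deposited table, 5 higher and 3 lower. Among these, Lrrk2, the Parkinson disease kinase (1.75 ± 0.23), rose most and Ulk1, the kinase that starts autophagy (-1.01 ± 0.12), fell most in the authors' deposited table. Of 6 endothelial markers 2 were in the authors' deposited table, both higher, with a summed level of 10.6 FPKM in CDAA and 3.66 FPKM in CSAA.

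**Figure D4:**
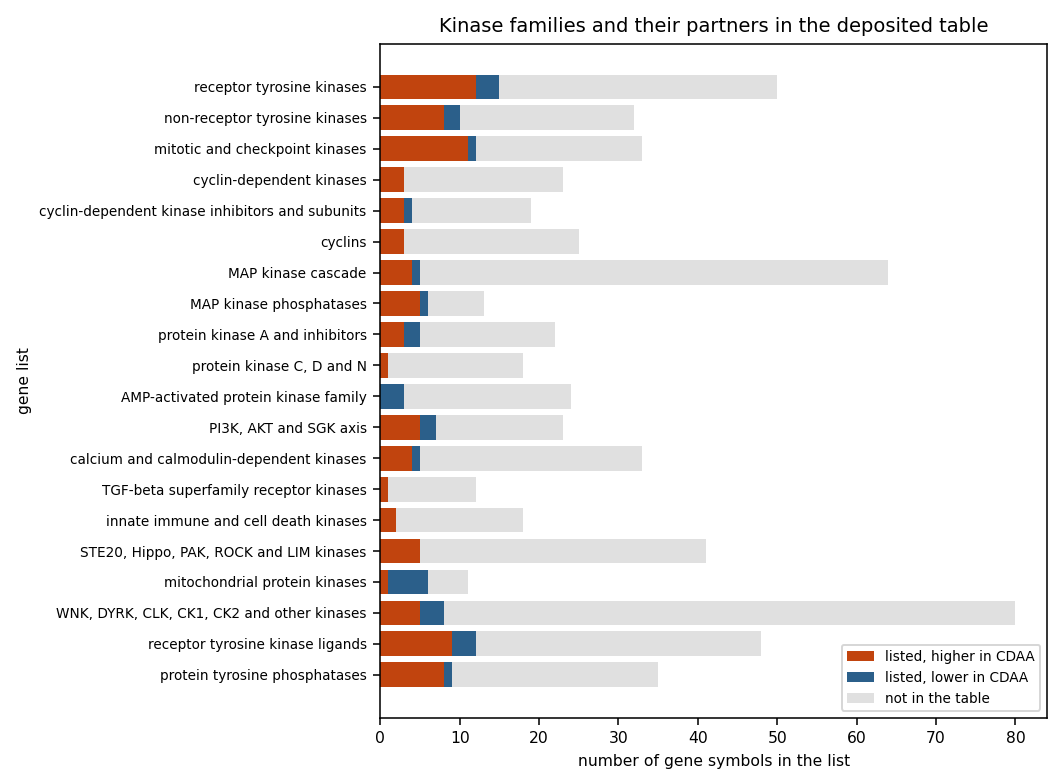
Number of gene symbols in each of 20 lists of kinase families, partners and opposing phosphatases that were in the authors' deposited table and higher in CDAA (orange), in it and lower in CDAA (blue), or not in it (grey). The mitotic and checkpoint list has 11 higher and 1 lower of 33, the AMPK list 3 lower of 24 and the mitochondrial list 1 higher and 5 lower of 11.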

How the data were processed

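Liver RNA of 8 rats, 4 on CDAA and 4 on CSAA, was extracted with Trizol and made into libraries with an Illumina TruSeq RNA kit, per the labels' protocols. Build rn6 is the one the authors name, and TopHat2, FastQC, edgeR, DESeq2 and Cufflinks are their programs, per the submitters' processing notes. Versions of these programs, how reads were counted, and with which annotation and strand, are not stated in the sources used here. Each row of the deposited table is a gene. For DESeq2 the authors' deposited columns are the mean normalised count of the samples (unit: signal), the log2 fold change with its SE, the Wald score and the p-value, raw and adjusted. For edgeR the authors' deposited columns are the log2 fold change, the average CPM on the log2 scale, and the p-value with its false discovery rate. For Cufflinks the authors' deposited columns are 1 value per diet group, their log2 ratio, a test score, the p-value and the q-value. The group values were read as FPKM, since Cufflinks writes that unit, although the header of the deposited table names none. The sign is CDAA over CSAA.

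The highest values in the authors' deposited table are an adjusted p of 0.00986 (DESeq2), a false discovery rate of 0.0100 (edgeR) and a q of 0.00980 (Cufflinks). No test across rats could be run: the p-values are the authors' own. The mean counts and mean CPM correspond to about 14100000 counted reads in a typical library; the files used here do not state it for each rat.

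Genes were counted by the sign of the authors' DESeq2 fold change. The members, the 20 family lists and the 6 marker lists were chosen with earlier results of these data known, so no p-value was computed over them. List symbols were merged through RefSeq names (GRCr8, names only), which recognised 48 of the 51 symbols and led to 2 list entries being dropped. Classes in the text follow textbook function. The number of genes behind an adjustment was recovered from adjusted over raw p, which equals that number over the rank; with 16076 genes the rank was whole within 1e-06 for 93.1% of listed genes. The functions were tested on simulated data. Named genes were the 15 largest rises and 10 largest falls, up to 3 of each family list, all inhibitors, any on which the programs differed by over 1.5 times, and up to 3 further kinases of a list; the remaining members and a few ligands, phosphatases and markers were named after their values were seen. Coordinates are the authors' Cufflinks loci. Alternatives were another program, a change of at least 2-fold, 1 FPKM as the minimum for the larger group value, a threshold of 0.001, unshared loci and, added after seeing the data, no provisional identifiers and kinases alone. Scripts ran in Python 3.11.15 with scipy 1.17.1, numpy 2.4.6 and pandas 2.3.3, and figures were drawn with matplotlib 3.10.9.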

Additional observations from a re-analysis of the deposited data

How the results depend on the processing

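The sign of all 51 genes was alike in DESeq2, edgeR and Cufflinks, so the counts of 39 higher and 12 lower did not depend on the program. Asking for a change of at least 2-fold left 30 higher and 3 lower; among the genes lost were kinases, of which 2 lower ones were left, and the regulatory subunits, of which 0 were left. A threshold of 0.001 in all 3 programs left 26 higher and 6 lower. With 1 FPKM as the minimum for the larger group value, 35 rose and 12 fell; without LOC and RGD identifiers 38 and 10; with kinases alone 33 and 8. No member shared its locus with another listed gene. The median log2 fold change of the risers ran from 1.23 (at least 1 FPKM) to 1.53 (Cufflinks) and that of the fallers from -0.95 (edgeR) to -0.93. DESeq2 folds were smaller in size than edgeR folds for 47 of the 51. No paired analysis was possible because the deposited table holds no values of single rats, and for the same reason no rat could be left out in turn. The group levels carry no spread. The largest SEs of the log2 fold change were 0.49 for Ptk6, 0.47 for Ptk7 and 0.46 for Ddr1.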

Other observations

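Protein tyrosine phosphatases remove the phosphate that tyrosine kinases add. Of 35 protein tyrosine phosphatase genes, 9 were in the authors' deposited table, with 8 higher and 1 lower, where 57.1% of all listed genes were higher. Ptprc, the CD45 phosphatase that activates SRC family kinases in leukocytes, was at 12.1 FPKM in CDAA and 3.96 FPKM in CSAA, a log2 fold change of 1.53 ± 0.18 (SE), in the authors' deposited table. Ptpn13 was at 4.84 FPKM in CDAA and 1.48 FPKM in CSAA (1.69 ± 0.20), and Ptpn14, a regulator of YAP, at 1.01 FPKM in CDAA and 0.270 FPKM in CSAA (1.77 ± 0.37), in the authors' deposited table. Ptprs, a receptor for proteoglycans, was the faller, at 15.2 FPKM in CDAA and 46.2 FPKM in CSAA (-1.60 ± 0.16) in the authors' deposited table.

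Pdgfra, the receptor kinase of mesenchymal cells, had a log2 fold change of 1.08 ± 0.20 (SE) with DESeq2 and 1.08 with edgeR but 3.28 with Cufflinks, whose group values were 50.9 FPKM in CDAA and 5.24 FPKM in CSAA, in the authors' deposited table. The ratio of Axl to Tyro3 in FPKM was 3.19 in CDAA and 5.79 in CSAA, computed from the authors' deposited table. The kinase genes closest together on a chromosome were Fgr and Map3k6, both higher in CDAA, whose loci start 264258 bases apart on chromosome 5 in rn6.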
